A study of Homo sapiens with 31 samples.

Results

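The comparison described here sets tumours of PC3 clone A3 against tumours of unpassaged PC3, all from animals given cyclophosphamide (CPA). It takes the 4 arrays titled as CPA-treated, in vivo passaged clone A3 and the 4 titled as CPA-treated, unpassaged PC3, 8 of the 31 arrays in all. PC3 is an established human prostate carcinoma line, and A3 is 1 clone of it that was re-isolated after growth in animals. Cells were cultured, injected and grown as xenografts to a mean volume of 30 mm3, after which 1 group of each line received CPA at 120 mg/kg intraperitoneally. The labels call both A3 and the unpassaged line sensitive to CPA. The other groups used for reference are untreated A3 (3 arrays) and untreated unpassaged PC3 (4 arrays), and the CPA-treated clones D3 and D4 (4 arrays each), which the labels call resistant and which were also passaged in animals. The sources used here do not name the host strain, the number of doses or the time of harvest. The title of the series speaks of metronomic dosing, in which a drug is given often and without long breaks. Since A3 is a single clone, the difference is that between 1 clone and the line it came from, and the p-values measure the spread between tumours labelled as replicates, which may in part be technical.

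CPA is a prodrug: liver P450 enzymes open its path to phosphoramide mustard, which crosslinks the strands of DNA and so blocks replication, and aldehyde dehydrogenases divert the activated form to a harmless acid. Type I interferon acts through the JAK kinases and a complex with IRF9 as its DNA-binding part, which binds the interferon-stimulated response element (ISRE) in the promoters of antiviral genes. PC3 cells carry both epithelial and mesenchymal features.

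The deposited values were log2 expression levels, so a difference of 1 is a 2-fold difference. Array medians over all probe sets lay between 6.588 and 6.727, and the 8 arrays correlated across genes at 0.991 to 0.995 within a group. The first principal component of these arrays carried 52.0% of the variance and separated the groups, with A3 at 22, 20.5, 16.5 and 8.0 and unpassaged PC3 at -9.1, -21.2, -23.7 and -13.0. Keratin 18 (KRT18, log2 level 9.92 in A3 and 10.03 in unpassaged PC3), vimentin (VIM, 11.18 and 11.07) and CD44 (10.57 and 10.51) were bright in both groups, and prostate-specific antigen (KLK3, 5.98 and 5.89) was dim. Of the 6 measured genes with a known status in PC3, these 4 were not called. The other members were keratin 8 (KRT8, 9.59 in A3 and 9.96 in unpassaged PC3, -0.37 ± 0.12 SE), which was called lower, and alpha-catenin (CTNNA1, 6.27 and 5.80, 0.48 ± 0.13 SE), which was called higher. The readings of CTNNA1 were dim, between the first quartile (5.72) and the median (7.14) of gene means. KRT8 lost its call in 4 of the fits that left out an array, that without unpassaged replicate 1 among them. CTNNA1 lost its call in 1, that without unpassaged replicate 3. Whether the dim CTNNA1 signal stems from that gene was not tested. In bulk tumours, fewer cells of a type and less RNA per cell cannot be told apart.

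Of 17314 genes tested, 2829 were called at an adjusted p under 0.05 (16.3%). Of these, 1167 were higher in A3 (6.74%) and 1662 were lower (9.60%). The differences were mostly small: the median absolute log2 difference of the called genes was 0.405, and only 103 were called and differed at least 2-fold (0.595%), 6 of them higher (0.0347%) and 97 lower (0.560%) in A3. At an unadjusted p under 0.05 there were 5009 genes (28.9%). For 3344 genes (19.3%) the 4 A3 arrays and the 4 unpassaged arrays did not overlap. Without A3 replicate 1 the number of genes called higher was 753 and the number called lower 1238.

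Ceruloplasmin (CP), the copper-carrying ferroxidase of plasma, showed the largest difference of all genes called. It read 5.48, 5.07, 5.01 and 5.39 in the A3 tumours, against 8.21, 9.22, 9.73 and 9.46 in the unpassaged tumours. The A3 arrays all lay far below the lowest unpassaged array, where lack of overlap was a condition for the genes ranked by difference. The mean was 15.1-fold lower in A3 (log2 difference -3.92 ± 0.29 SE, adjusted p = 1.3e-10). Among the 22 measured genes of iron and copper handling, 6 were called lower and 0 higher, where 9.60% and 6.74% of all genes were. Without unpassaged replicate 3, 3 were lower. The second clearest was ferroportin (SLC40A1), the iron exporter, at 6.02, 6.40, 6.24 and 6.39 in A3 and 6.83, 6.86, 7.26 and 7.09 in unpassaged PC3 (-0.75 ± 0.11 SE, adjusted p = 1.7e-05). Its groups did not overlap either.

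**Figure D1:**
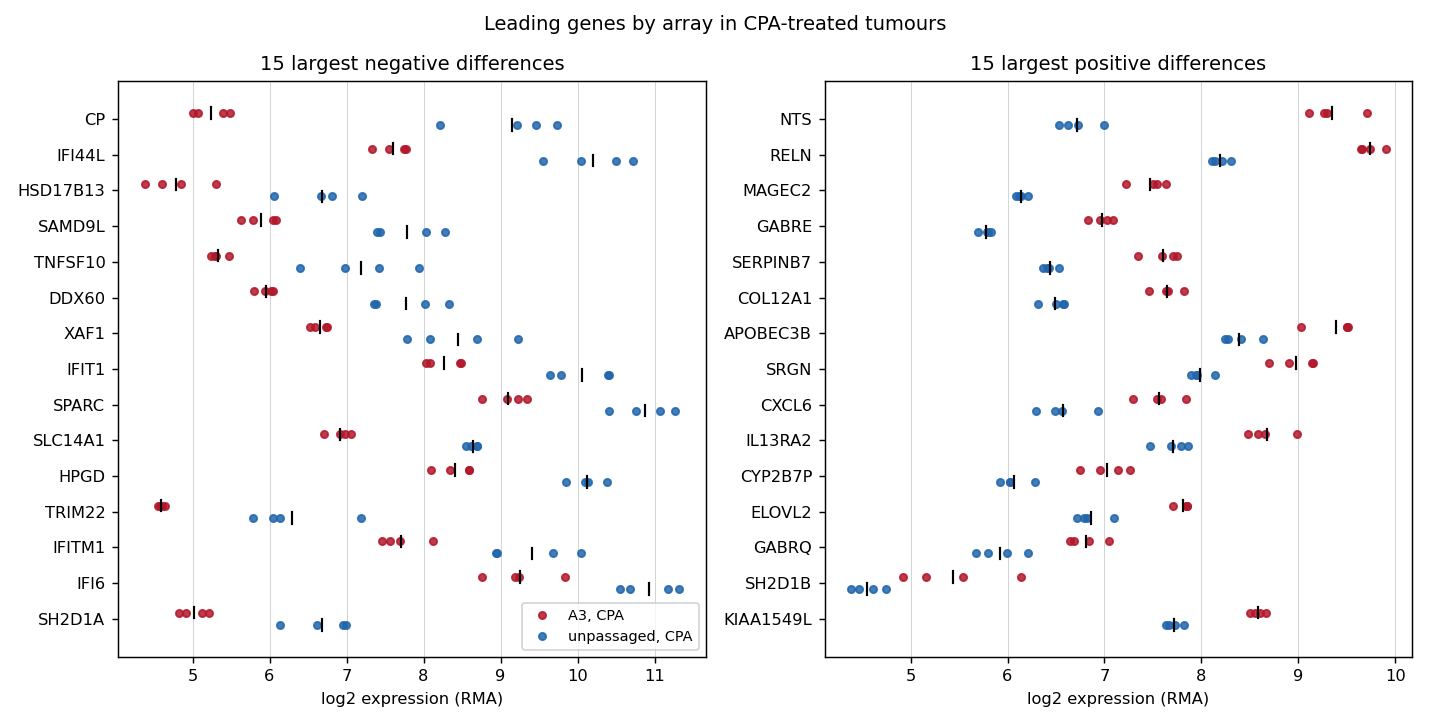
Log2 expression of the 15 genes with the largest negative (left) and positive (right) differences among called genes without overlap, with 1 point per array (A3 above, unpassaged PC3 below, CPA-treated) and a bar at the group mean. A3 readings of CP sit between 5.01 and 5.48, below all unpassaged readings, and those of NTS between 9.11 and 9.71, above all unpassaged readings.

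Most interferon-induced effector genes were lower in A3. Of 47 measured members, 38 were lower, 0 were higher and 9 were not called, where 9.60% of all genes were called lower. The median difference over the list was -0.772, against 0.034 over all genes. Of the 15 genes with the largest negative differences, IFI44L, SAMD9L, DDX60, XAF1, IFIT1, TRIM22, IFITM1 and IFI6 belong to this list.

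IFI44L, an interferon-induced gene that dampens the antiviral response, read 7.55, 7.33, 7.74 and 7.77 in A3, against 9.55, 10.5, 10.72 and 10.04 in unpassaged PC3. It was 6.08-fold lower in A3 (-2.60 ± 0.25 SE, adjusted p = 2.2e-08). IFIT1, which binds viral RNA that lacks the host cap, read 8.47, 8.03, 8.08 and 8.48 in A3 and 9.64, 10.39, 10.41 and 9.78 in unpassaged PC3 (-1.79 ± 0.18 SE). The 2',5'-oligoadenylate synthetases, which activate RNase L, were lower as well, OAS1 by a log2 difference of -1.65 ± 0.17 SE and OAS2 by -1.46 ± 0.16 SE. The restriction factor SAMD9L differed by -1.90, the helicase-like DDX60 by -1.82, the membrane protein IFITM1, which blocks virus entry, by -1.69, and the mitochondrial protein IFI6 by -1.68. TRIM22, a RING-finger antiviral protein, read between 4.55 and 4.64 in A3 and between 5.79 and 7.19 in unpassaged PC3. For these genes the unpassaged tumours spread more than the A3 tumours: the mean level over the 47 members ran from 7.50 to 7.70 in A3 and from 8.23 to 8.88 in unpassaged PC3.

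Promoter sequences are shown for 4 of the interferon-induced genes because their windows carry the ISRE. They come from RefSeq (GRCh38.p14), run 5′ to 3′ from 250 bases before the start to 50 after it, and have every match to the ISRE core, GAAA followed after 2 free bases by GAAA on either strand, in capitals.
IFI44L, chr1:78620198-78620497, plus strand: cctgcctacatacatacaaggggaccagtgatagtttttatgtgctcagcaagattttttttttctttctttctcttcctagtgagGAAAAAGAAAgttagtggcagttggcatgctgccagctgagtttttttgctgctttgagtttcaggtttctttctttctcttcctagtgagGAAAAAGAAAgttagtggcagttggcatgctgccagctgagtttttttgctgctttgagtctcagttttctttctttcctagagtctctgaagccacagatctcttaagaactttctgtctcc
IFIT1, chr10:89392373-89392672, plus strand: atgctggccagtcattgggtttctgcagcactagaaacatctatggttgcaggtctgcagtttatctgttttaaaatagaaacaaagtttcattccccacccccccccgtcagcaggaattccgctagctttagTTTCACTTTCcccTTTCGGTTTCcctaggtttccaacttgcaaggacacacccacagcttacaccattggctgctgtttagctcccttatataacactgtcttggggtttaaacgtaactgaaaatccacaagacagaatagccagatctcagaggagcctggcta
IFI6, chr1:27672143-27672442, minus strand: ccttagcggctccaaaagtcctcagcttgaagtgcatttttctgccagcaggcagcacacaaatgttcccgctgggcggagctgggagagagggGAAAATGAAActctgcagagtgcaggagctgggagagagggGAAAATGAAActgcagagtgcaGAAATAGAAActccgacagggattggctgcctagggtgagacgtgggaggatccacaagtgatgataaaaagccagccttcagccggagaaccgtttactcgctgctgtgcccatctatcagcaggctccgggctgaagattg
DDX60, chr4:168318703-168319002, minus strand: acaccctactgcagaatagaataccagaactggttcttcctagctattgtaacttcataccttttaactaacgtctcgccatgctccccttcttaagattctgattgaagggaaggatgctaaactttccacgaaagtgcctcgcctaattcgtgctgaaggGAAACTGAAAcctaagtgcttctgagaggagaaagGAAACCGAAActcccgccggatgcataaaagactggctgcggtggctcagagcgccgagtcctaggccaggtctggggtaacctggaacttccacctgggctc

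In the promoter of IFI44L the first match began at position -164 from the start, in IFIT1 at -116, in IFI6 at -156 and in DDX60 at -88. Of the interferon effector genes, 38 had a promoter in the table and 27 of these (71.1%) held the motif, against 3.65% of all 27305 promoters of that length. Among the 13457 tested genes with a promoter, 5.61% of the genes called lower held it, 1.89% of those called higher and 2.68% of those not called. Of the effector genes with a promoter, 24 of the 32 called lower and 3 of the 6 not called held it. A match describes the letters in the window and was not tested as a binding site.

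Sensors and signalling genes of the pathway differed less as a list, beside shares of 9.60% called lower and 6.74% called higher over all genes. Of 26 measured, 5 were lower and 0 higher (1 higher without unpassaged replicate 1 or A3 replicates 3 or 4), and the list's other members, which include the receptor subunits IFNAR1 (-0.22 ± 0.14 SE) and IFNAR2 (-0.19 ± 0.13 SE), were not called. The RNA sensor MDA5 (IFIH1) read 6.04, 6.16, 5.98 and 6.23 in A3 and 7.13, 7.70, 8.12 and 7.35 in unpassaged PC3 (-1.47 ± 0.18 SE, adjusted p = 4.6e-07). RIG-I (RIGI) differed by -1.34 ± 0.16 SE and IRF9 by -0.86 ± 0.12 SE. The endosomal RNA sensor TLR3 differed by -0.73 ± 0.15 SE at low levels, 3.89 in A3 and 4.62 in unpassaged PC3. JAK2 was also called but lost the call in some of the fits that left out an array.

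Antigen presentation by MHC class I, which interferon raises, was represented by 9 measured genes of 20 in the list, of which 4 were lower and 0 higher (2 lower without unpassaged replicate 3). Over all genes 9.60% were lower and 6.74% higher. Beta-2 microglobulin (B2M), the light chain of every class I molecule, read 10.15, 10.35, 10.03 and 9.84 in A3, against 10.63, 10.97, 11.15 and 10.69 in unpassaged PC3 (-0.77 ± 0.11 SE, adjusted p = 9.8e-06). NLRC5, the transactivator of class I genes, differed by -0.51 ± 0.12 SE.

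The death ligand TRAIL (TNFSF10), also interferon-induced, read 5.24, 5.29, 5.30 and 5.47 in A3 and 6.40, 7.42, 7.94 and 6.98 in unpassaged PC3, a 3.63-fold lower mean in A3 (-1.86 ± 0.22 SE, adjusted p = 4.1e-07). Within the death receptor pathway 4 of 16 measured genes were lower and 1 was higher, where 9.60% and 6.74% of all genes were. CFLAR, which blocks caspase 8 at the receptor, differed by -0.74 ± 0.09 SE and caspase 8 itself (CASP8) by -0.30 ± 0.07 SE. BID, which carries the signal to mitochondria, was the member that was higher in A3 (0.41 ± 0.07 SE); it lies on chromosome 22. Of the 6 measured APOBEC3 cytidine deaminases, which edit viral DNA, APOBEC3B was higher in A3, at 9.50, 9.51, 9.03 and 9.50 against 8.63, 8.27, 8.24 and 8.41 (1.0 ± 0.12 SE, adjusted p = 3.3e-07). It also lies on chromosome 22. APOBEC3D was called lower (-0.24 ± 0.08 SE) but not without A3 replicates 1, 2 or 3 or unpassaged replicates 1 or 3. APOBEC3G (-0.34 ± 0.18 SE) and APOBEC3C (-0.17 ± 0.10 SE) were not called.

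**Figure D2:**
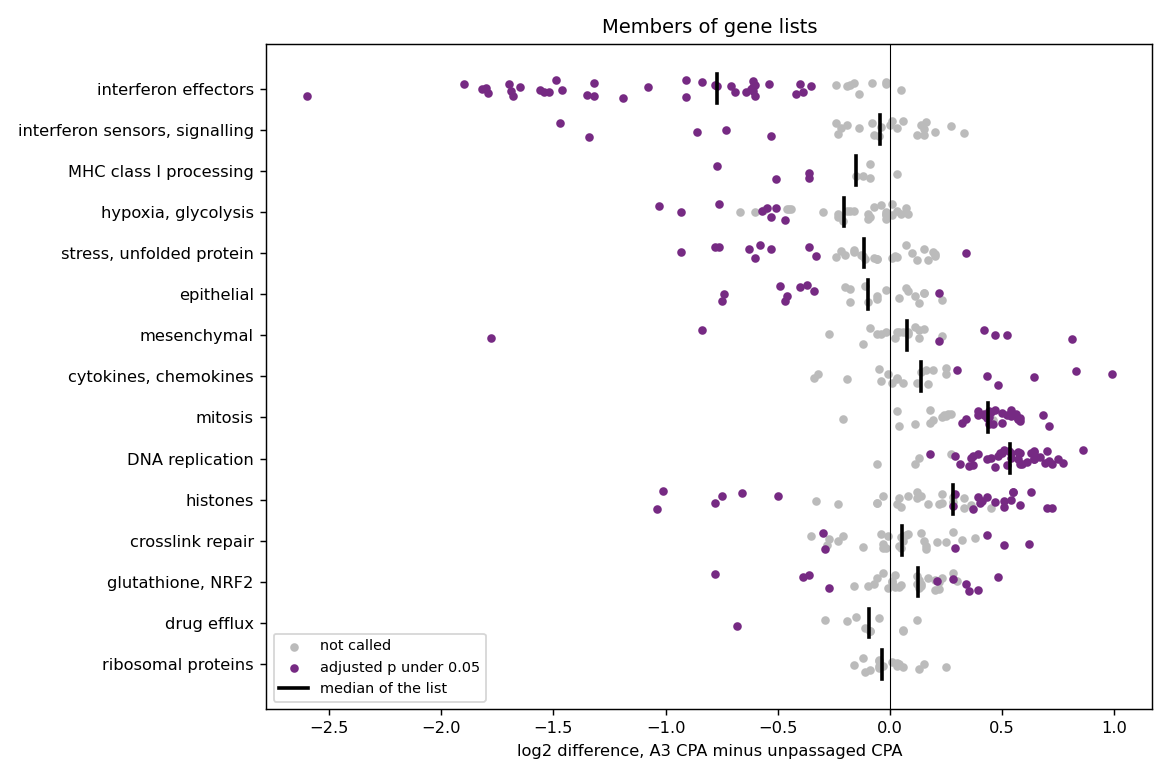
Log2 difference, A3 minus unpassaged PC3 under CPA, for each measured member of 15 gene lists (1 point per gene, purple where called at an adjusted p under 0.05, with a bar at the median of the list). The interferon effectors lie to the left with a median of -0.772, the mitosis and DNA replication genes to the right with medians of 0.435 and 0.535, and ribosomal proteins near 0.

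Neurotensin (NTS), a secreted peptide hormone of gut and brain, had the largest positive difference. It read 9.29, 9.71, 9.11 and 9.26 in A3, against 6.53, 6.62, 6.99 and 6.73 in unpassaged PC3, and was 6.15-fold higher in A3 (2.62 ± 0.22 SE, adjusted p = 2.0e-09). Lack of overlap between the groups was a condition of this ranking. Its receptor NTSR1 was bright in both, at 9.24 in A3 and 9.10 in unpassaged PC3 (0.15 ± 0.16 SE), and was not called. The bombesin receptor GRPR was lower in A3 (-0.40 ± 0.09 SE), and its ligand GRP was not called (0.15 ± 0.11 SE).

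Reelin (RELN), an extracellular glycoprotein that guides neurons, read 9.66, 9.74, 9.65 and 9.90 in A3 and 8.21, 8.30, 8.14 and 8.11 in unpassaged PC3 (1.55 ± 0.11 SE, adjusted p = 9.3e-11). The GABA-A receptor subunit epsilon (GABRE) had the smallest adjusted p of all genes, 3.8e-11, with 7.09, 6.83, 6.95 and 7.03 in A3 against 5.70, 5.80, 5.79 and 5.83 (1.19 ± 0.08 SE). The theta subunit (GABRQ), which lies near it on the X chromosome, was higher too (0.89 ± 0.10 SE), whereas GABRA3 between them was not called (0.05 ± 0.11 SE). GABRE and GABRQ were the only 2 of 14 measured GABR genes that were called, a family looked at after its values were seen. IL13RA2, the decoy receptor for interleukin 13, read 8.48, 8.99, 8.58 and 8.65 in A3 and 7.69, 7.86, 7.79 and 7.47 in unpassaged PC3 (0.97 ± 0.19 SE).

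Cancer/testis antigens, genes of the germ line that tumours can express, were called higher for 4 of 12 measured members and lower for 1. Over all genes 6.74% were called higher and 9.60% lower. MAGEC2 read 7.50, 7.54, 7.22 and 7.63 in A3 and 6.12, 6.09, 6.14 and 6.21 in unpassaged PC3 (1.33 ± 0.12 SE, adjusted p = 9.9e-09). PRAME (0.62 ± 0.11 SE), MAGEA1 (0.53 ± 0.11 SE) and MAGEA10 (0.41 ± 0.09 SE) were higher and SSX1 was lower (-0.55 ± 0.11 SE). The other genes among the 15 largest positive differences were the clade B serpin SERPINB7 (1.16), the collagen COL12A1 (1.15), the proteoglycan serglycin (SRGN, 0.99), the fatty acid elongase ELOVL2 (0.95), the pseudogene CYP2B7P (0.96), the adaptor SH2D1B (0.88) and KIAA1549L (0.87).

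The other genes among the 15 largest negative differences, and those with the smallest adjusted p, came from several systems. HPGD, which inactivates prostaglandins, read 8.10, 8.59, 8.59 and 8.34 in A3 and 9.85, 10.14, 10.38 and 10.10 in unpassaged PC3 (-1.72 ± 0.15 SE). The urea transporter SLC14A1 read 7.06, 6.91, 6.71 and 6.98 in A3 and 8.61, 8.69, 8.70 and 8.55 in unpassaged PC3 (-1.72 ± 0.15 SE). Each group was tight for both genes, and lack of overlap was a condition of this ranking. The lipid droplet protein HSD17B13 differed by -1.90 ± 0.19 SE, the lymphocyte adaptor SH2D1A by -1.66 ± 0.18 SE and GLB1L3, a relative of beta-galactosidase, by -1.50 ± 0.11 SE. LGR5, a receptor for R-spondins and a mark of stem cells in the gut, differed by -1.50 ± 0.18 SE, with 7.70, 7.65, 7.87 and 8.20 in A3 against 9.13, 9.21, 9.66 and 9.41. Among 25 measured genes of BMP and WNT signalling and stem cells, 4 were lower and 2, SOX2 (0.71 ± 0.11 SE) and LEF1 (0.52 ± 0.11 SE), were higher, where 9.60% and 6.74% of all genes were, and the median of the list was 0.009.

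Genes of DNA replication were higher in A3 almost throughout. Of 43 measured, 39 were called higher and 0 lower, where 6.74% of all genes were called higher, and the median was 0.535. CDC45, which starts the replicative helicase, read 9.23, 9.32, 9.01 and 9.04 in A3, against 8.43, 8.31, 8.0 and 8.43 in unpassaged PC3 (0.86 ± 0.09 SE, adjusted p = 8.0e-08). MCM2 (0.69 ± 0.08 SE) and MCM5 (0.67 ± 0.09 SE), subunits of that helicase, and ORC1 (0.77 ± 0.10 SE), which marks origins, were higher. Thymidylate synthase (TYMS), which makes the thymidine nucleotide, read 10.13, 10.04, 9.86 and 9.88 in A3 and 9.45, 9.20, 9.17 and 9.20 in unpassaged PC3 (0.72 ± 0.09 SE). For 38 of the 43 genes the arrays of the groups did not overlap, against 8.52% of all genes in that direction.

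Mitosis genes were higher in 25 of 38 measured cases and lower in 0, with a median of 0.435, where 6.74% of all genes were called higher. Survivin (BIRC5), a part of the chromosomal passenger complex, read 9.45, 9.31, 9.34 and 9.24 in A3 and 8.88, 8.67, 8.66 and 8.80 in unpassaged PC3 (0.58 ± 0.07 SE, adjusted p = 1.1e-06). Cyclin A2 (CCNA2) differed by 0.68 ± 0.09 SE, the kinesin KIF4A by 0.71 ± 0.11 SE, the spindle protein PRC1 by 0.56 ± 0.08 SE and the aurora kinase AURKB by 0.45 ± 0.07 SE. The proliferation marker Ki-67 (MKI67) read 9.42, 9.49, 9.34 and 9.67 in A3 and 9.13, 9.02, 8.70 and 8.77 in unpassaged PC3 (0.58 ± 0.11 SE). The differences were all under 2-fold.

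Sequence elements of cell cycle promoters were searched in the same windows. The E2F motif (TTTGGCGC or TTTCCCGC, either strand) stood in 19 of the 38 DNA replication promoters in the table (50%), against 2.31% of all promoters. The cell cycle homology region (CHR, TTTGAAA, either strand) stood in 10 of 33 mitosis promoters (30.3%), against 6.23% of all. Among tested genes, CHR stood in 5.26% of those called higher, 4.5% of those called lower and 4.62% of those not called. For E2F these shares were 7.36%, 2.07% and 2.91%. CHR stood in 7 of 21 called and 3 of 12 uncalled mitosis promoters, and E2F in 18 of 34 called and 1 of 4 uncalled replication promoters. One promoter of each kind is printed from the same RefSeq table, with the match in capitals, beginning at -39 in TYMS and at -20 in PRC1.
TYMS, chr18:657403-657702, plus strand: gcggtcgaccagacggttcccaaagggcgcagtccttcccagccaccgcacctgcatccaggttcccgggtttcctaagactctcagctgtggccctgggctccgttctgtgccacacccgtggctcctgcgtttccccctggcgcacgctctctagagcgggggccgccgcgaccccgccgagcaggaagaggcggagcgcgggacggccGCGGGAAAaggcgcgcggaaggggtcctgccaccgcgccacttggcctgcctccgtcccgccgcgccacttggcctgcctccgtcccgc
PRC1, chr15:90994486-90994785, minus strand: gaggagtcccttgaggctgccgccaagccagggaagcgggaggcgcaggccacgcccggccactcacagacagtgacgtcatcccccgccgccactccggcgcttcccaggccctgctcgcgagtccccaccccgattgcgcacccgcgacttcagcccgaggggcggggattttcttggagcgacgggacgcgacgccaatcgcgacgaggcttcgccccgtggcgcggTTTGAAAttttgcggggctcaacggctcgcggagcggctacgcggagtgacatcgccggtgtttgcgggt

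Of 45 measured histone genes, 17 were higher and 6 lower (10 higher without A3 replicate 1), where 6.74% and 9.60% of all genes were. The higher ones included H4C3 (0.70 ± 0.14 SE), H2BC14 (0.58 ± 0.11 SE) and the linker histone H1-4 (0.47 ± 0.09 SE). The lower ones included H4C8, at 8.87, 8.86, 8.92 and 9.23 in A3 against 9.42, 10.18, 10.27 and 10.04 (-1.01 ± 0.13 SE), and H2BC21 (-1.04 ± 0.14 SE). Histone genes are near-identical copies, so probes of one may bind transcripts of another.

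Of 32 measured genes that repair DNA crosslinks, the lesion of CPA, 4 were higher and 2 lower, where 16.3% of all genes were called in either direction, so the count reads near that of all genes. The lower ones numbered 0 without A3 replicate 1 and 4 without unpassaged replicate 1. The Fanconi anaemia gene FANCI, a part of the complex that is ubiquitinated at crosslinks, read 9.82, 9.88, 9.83 and 10.11 in A3 and 9.30, 9.40, 9.04 and 9.40 in unpassaged PC3 (0.62 ± 0.11 SE). FANCG (0.51 ± 0.08 SE) and FANCE (0.43 ± 0.08 SE), members of the core complex, were higher as well. Both lower members, XPA (-0.30 ± 0.08 SE) and REV1 (-0.29 ± 0.10 SE), lost their call without A3 replicate 1.

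Genes that handle the drug were read as 4 lists, beside shares of 6.74% called higher and 9.60% called lower over all genes. Of 4 measured genes of CPA activation, P450 enzymes and their reductase, 1 was called. CYP2B6, a P450 that activates CPA, was dim, at 5.90, 5.64, 5.38 and 5.30 in A3 and 5.15, 5.12, 4.90 and 5.15 in unpassaged PC3 (0.48 ± 0.14 SE, adjusted p = 0.019). Its call was lost in 3 of the fits that left out an array, those without A3 replicates 1 and 2 and unpassaged replicate 3, and CYP2B7P is a close copy of it. Of 19 aldehyde dehydrogenases 2 were called higher, which became 0 without A3 replicate 1 and 1 without A3 replicate 2 or unpassaged replicates 1, 2 or 3. ALDH1A1 (-0.12 ± 0.13 SE) and ALDH3A1 (0.04 ± 0.12 SE), which detoxify activated CPA, were not called. Of 36 genes of glutathione metabolism and the NRF2 response, 6 were higher, among them NQO1 (0.39 ± 0.08 SE), the haem oxygenase HMOX1 (0.48 ± 0.11 SE) and the thioredoxin reductase TXNRD1 (0.34 ± 0.08 SE). There 4 were lower (1 without unpassaged replicate 3), with the cystine carrier SLC7A11 furthest from 0 (-0.78 ± 0.16 SE). The gene of NRF2 itself (NFE2L2) was also among those called lower. Of 11 drug efflux genes only ABCC3 was called (2 were without A3 replicate 4), at 7.61, 7.65, 7.85 and 7.80 in A3 and 8.51, 8.34, 8.5 and 8.26 in unpassaged PC3 (-0.68 ± 0.09 SE, adjusted p = 4.8e-06). The pumps ABCB1 (0.06 ± 0.12 SE) and ABCG2 (-0.09 ± 0.09 SE) were not called.

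Chemokines and inflammatory cytokines were called higher in 6 of 23 cases and lower in 0, where 6.74% and 9.60% of all genes were. With the dimmest 30% of genes left out, which leaves fewer of the list to test, 3 were higher. CXCL6, which attracts neutrophils, read 7.29, 7.84, 7.54 and 7.58 in A3 and 6.56, 6.49, 6.29 and 6.93 in unpassaged PC3 (0.99 ± 0.10 SE, adjusted p = 5.7e-08). CXCL1 (0.83 ± 0.09 SE), interleukin 8 (CXCL8, 0.64 ± 0.13 SE) and interleukin 1 beta (IL1B, 0.48 ± 0.11 SE) were also higher. The neutrophil markers S100A8 (4.53 in A3 and 4.26 in unpassaged PC3) and S100A9 (5.50 and 5.41) were dim and not called.

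Hypoxia and glycolysis genes were lower in 8 of 36 cases and higher in 0, where 9.60% and 6.74% of all genes were, with a median of -0.203. Without A3 replicate 1, 16 were lower. That tumour stood apart in this list: the glucose transporter SLC2A1 read 10.13, 8.93, 9.06 and 9.02 in A3, against 10.03, 9.59, 10.11 and 9.80 in unpassaged PC3 (-0.60 ± 0.29 SE, adjusted p = 0.16). NDRG1, a hypoxia-induced gene, had the same shape, with 11.50, 10.35, 10.49 and 10.5 against 11.39, 11.15, 11.67 and 11.30. The hormone stanniocalcin 2 (STC2, -0.93 ± 0.13 SE), the collagen crosslinking enzyme lysyl oxidase (LOX, -1.03 ± 0.16 SE) and VEGFA (-0.47 ± 0.13 SE) were called lower.

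Of 32 measured genes that answer amino acid shortage or misfolded proteins (the integrated stress and unfolded protein responses), 9 were lower and 1, SHMT2, was higher. Over all genes 9.60% were lower and 6.74% higher. The number higher was 2 without unpassaged replicate 5 or A3 replicate 2 and 4 without A3 replicate 4. The co-chaperone DNAJB9 read 6.58, 6.52, 6.55 and 6.36 in A3 and 7.21, 7.52, 7.43 and 7.54 in unpassaged PC3 (-0.93 ± 0.11 SE, adjusted p = 3.5e-07). HERPUD1, of the degradation machinery of the endoplasmic reticulum, differed by -0.63 ± 0.10 SE, the chaperone BiP (HSPA5) by -0.36 ± 0.07 SE and the factor CHOP (DDIT3) by -0.60 ± 0.13 SE. ATF4, the central factor of the integrated stress response, was not called (0.17 ± 0.09 SE).

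Some genes of epithelial junctions were lower in A3. Of 25 measured epithelial genes 8 were lower and 1 was higher, where 9.60% and 6.74% of all genes were. The 8 became 4 without unpassaged replicate 3, and 5 without unpassaged replicate 1 or A3 replicate 2, and the 1 became 0 without any of 6 of the arrays. Desmoplakin (DSP) read 7.85, 7.59, 7.80 and 8.18 in A3 and 8.51, 8.69, 8.55 and 8.63 in unpassaged PC3 (-0.74 ± 0.09 SE). E-cadherin (CDH1) read 5.98, 5.75, 5.89 and 6.14 in A3 and 6.66, 6.56, 6.94 and 6.59 in unpassaged PC3 (-0.75 ± 0.12 SE), and EPCAM differed by -0.49 ± 0.08 SE. Of 24 mesenchymal genes 5 were higher and 2 lower, beside the same shares of all genes. The 2 lower were SPARC (-1.78) and fibronectin (FN1), given below with the matrix genes. Podoplanin (PDPN, 0.81 ± 0.08 SE), the kinase AXL (0.52 ± 0.11 SE), tenascin C (TNC, 0.47 ± 0.08 SE) and N-cadherin (CDH2, 0.42 ± 0.08 SE) were higher.

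Matrix genes are given by their values, and the counts of their lists stand beside 6.74% of all genes called higher and 9.60% called lower. The matrix protein SPARC read 9.08, 8.76, 9.23 and 9.34 in A3, against 10.41, 10.76, 11.27 and 11.07 in unpassaged PC3 (-1.78 ± 0.20 SE, adjusted p = 2.7e-07). Fibronectin (FN1) differed by -0.84 ± 0.10 SE. Of 26 collagen chains COL12A1 and COL4A6 were higher and 3 were lower, including COL5A2 (-0.67 ± 0.07 SE) and COL3A1 (-0.93 ± 0.15 SE), counts near those shares. Of 26 proteases and inhibitors 3 were higher and 6 lower. The plasminogen activators PLAU (0.70 ± 0.09 SE) and PLAT (0.65 ± 0.08 SE) were higher, and the collagenase MMP13, at 7.24, 7.22, 7.05 and 7.39 in A3 against 8.31, 8.39, 8.39 and 8.23, was lower (-1.11 ± 0.09 SE, adjusted p = 1.8e-09). Of 21 angiogenesis genes 3 were higher, among them placental growth factor (PGF, 0.41 ± 0.10 SE), and 4 lower, among them angiopoietin 1 (ANGPT1, -0.66 ± 0.15 SE).

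Markers of host tissue were read as well, since a human array may bind RNA of the animal. Their counts stand beside 6.74% of all genes called higher and 9.60% called lower. Among 14 fibroblast markers 1 was higher and 3 lower, with COL3A1 among the lower at -0.93. The mean level over the list ran from 6.19 to 6.31 in A3 and from 6.23 to 6.41 in unpassaged PC3. The defining marker DCN was near the bottom of the scale in both groups (3.26 in A3 and 3.17 in unpassaged PC3), while COL1A1 (9.62 and 9.66) was bright and not called. Among 15 endothelial markers ENG, ROBO4, TIE1 and CLDN5 were higher, 4 in all (2 without unpassaged replicate 3 or A3 replicate 2). Only KDR was lower (-0.97 ± 0.13 SE). Of the 15, 11 had a positive difference, and the median was 0.133. Mean levels were 6.33 to 6.39 in A3 and 6.24 to 6.27 in unpassaged PC3. Among 16 leukocyte markers only CD68 was called (0.45 ± 0.08 SE; 2 were called higher without A3 replicate 4), and PTPRC, which all leukocytes carry, was at 3.26 in A3 and 3.20 in unpassaged PC3. The part of host cells in the differences of matrix and chemokine genes was not tested.

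The same lines were also compared without CPA. In the untreated tumours 3200 genes were called between A3 and unpassaged PC3 (18.5%), 1753 higher (10.1%) and 1447 lower (8.36%). These arrays are not those of the CPA comparison. Called the same way in both were 2016 genes, 71.3% of those called under CPA and 63.0% of those called without it, and 0 were called in opposite directions. Of the 813 genes called only under CPA, 777 had the same sign without it. Across all genes the differences with and without CPA correlated at r = 0.838, a description over genes, which are not independent replicates. CP differed by -4.35 in untreated tumours, IFI44L by -2.82, NTS by 2.58 and RELN by 1.55. Of the 47 interferon effector genes 38 were lower without CPA too, of the 43 replication genes 37 were higher, and of the 38 mitosis genes 28 were higher. The median of the mitosis list was 0.65 without CPA and 0.435 with it, and that of the replication list 0.565 and 0.535. Of the 45 histone genes 28 were higher without CPA and 17 with it, with medians of 0.461 and 0.28.

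**Figure D3:**
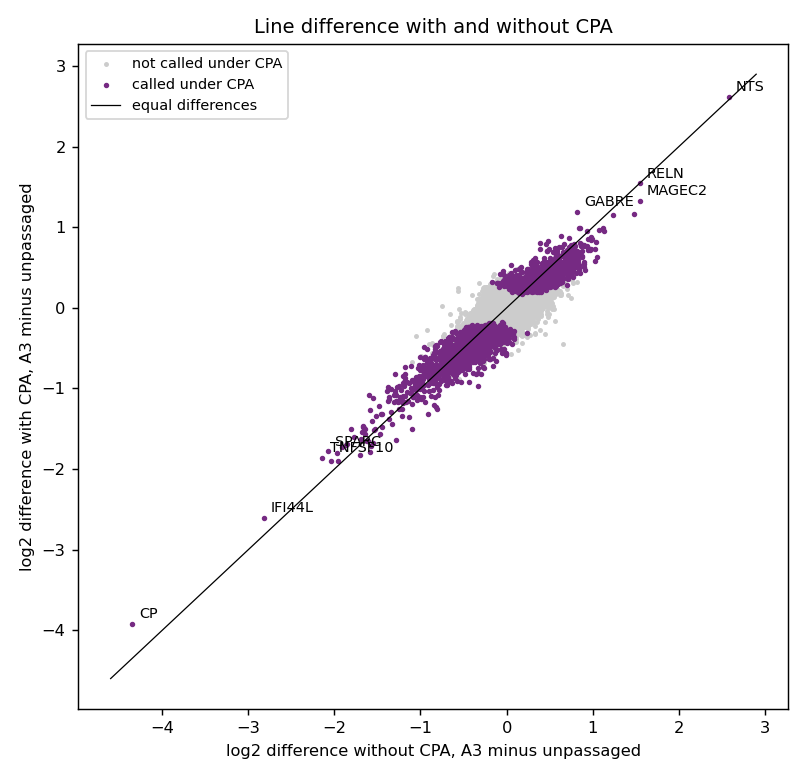
Each point is 1 of 17314 genes, with the log2 difference A3 minus unpassaged PC3 in untreated tumours (x axis) and in CPA-treated tumours (y axis), purple where called under CPA. The line marks equal differences, and CP (-4.35 and -3.92), IFI44L (-2.82 and -2.60) and NTS (2.58 and 2.62) lie near it.

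Whether the difference between the lines under CPA was another than that without it was tested gene by gene as a difference of differences. None of the 17314 genes was called by limma (0.00%), the smallest adjusted p was 0.9995, and 554 genes (3.20%) had an unadjusted p under 0.05. The standard error of this difference had a median of 0.152, so changes under 2-fold could be missed: a simulated log2 change of 0.5 was found in 33% of genes and one of 1 in 96%. Those simulated data held a further 200 changed genes besides a first 200, and with fewer changed genes the shares found may be lower. The gene with the smallest unadjusted p was FAM83D, a spindle protein, at 0.16 between A3 and unpassaged PC3 under CPA and 0.71 without it (-0.55 ± 0.12 SE). The chromatin protein PHF10 (0.44 ± 0.10 SE), the transcription factor GATA3 (-0.46 ± 0.12 SE), the histone H2AC16 (-0.63 ± 0.16 SE) and the sulphotransferase SULT1C4 (-0.72 ± 0.19 SE) followed. For GABRE the line difference was 1.19 under CPA and 0.82 without it (0.38 ± 0.12 SE, not called). Within each line CPA itself called 61 genes in A3 (0.352%) and 8 in unpassaged PC3 (0.0462%), of which 0.104% and 0.00578% of all genes were higher with CPA and 0.248% and 0.0404% lower. Of the mitosis list 15 of 38 members were lower with CPA in A3 and 5 in unpassaged PC3, and of the interferon effectors 0 were called in either line.

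The CPA-treated clones D3 and D4 give a further reading of the same genes against the same unpassaged tumours, whose arrays all 3 comparisons share. The interferon effector list was lower in 38 of 47 members in A3, 43 in D3 and 39 in D4, where 9.60%, 10.1% and 7.59% of all genes were called lower. CP differed by -3.92 in A3, -3.01 in D3 and -3.48 in D4, SPARC by -1.78, -1.71 and -1.65, and HPGD by -1.72, -1.49 and -1.53. Reelin was higher in all, by 1.55, 1.26 and 1.04. The replication list was higher in 39 of 43 members in A3, 21 in D3 and 37 in D4, where 6.74%, 6.28% and 7.54% of all genes were called higher.

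Other genes set A3 apart from D3 and D4, and this was tested as A3 minus the mean of both clones under CPA, where 1402 genes were called (8.10%), 3.87% of all genes higher and 4.23% lower. This contrast shares its A3 arrays with the comparison with unpassaged PC3, by which the genes below were picked. Their adjusted p here is therefore not independent of that choice. NTS was 2.12 ± 0.19 SE higher in A3 (adjusted p = 8.4e-09), with means of 9.34 in A3, 7.01 in D3 and 7.44 in D4. GABRE was 0.98 ± 0.07 SE higher (adjusted p = 4.7e-11), IL13RA2 1.05 ± 0.16 SE, SERPINB7 0.79 ± 0.11 SE, PDPN 0.68 ± 0.07 SE and MAGEC2 0.74 ± 0.11 SE. MAGEC2 averaged 7.47 in A3, 6.28 in D3 and 7.19 in D4, so the clones D3 and D4 did not read alike. MMP13 (-0.67 ± 0.08 SE), SLC14A1 (-0.71 ± 0.13 SE) and GLB1L3 (-0.69 ± 0.10 SE) were lower in A3 than in D3 and D4. IFI44L (-0.13 ± 0.22 SE), TNFSF10 (-0.14 ± 0.19 SE), SPARC (-0.09 ± 0.18 SE) and CP (-0.67 ± 0.25 SE, adjusted p = 0.097) were not called.

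Called genes were unevenly placed in the genome. On chromosome 22, 107 of 401 tested genes were higher in A3 (26.7%) and 5 lower (1.25%), against 6.74% and 9.60% over all genes, and the median difference was 0.173. The median deviation of these genes from their mean over the 8 arrays was 0.147, 0.109, 0.086 and 0.011 in the A3 tumours and -0.05, -0.137, -0.099 and -0.081 in the unpassaged tumours. The same chromosome had 111 genes higher in untreated A3 (27.7%, against 10.1% of all genes). In CPA-treated D3 30 were higher (7.48%, against 6.28%) and in CPA-treated D4 18 (4.49%, against 7.54%). Of its genes 92 (22.9%) were higher in A3 than in D3 and D4, where 3.87% of all genes were. Besides CDC45, BID, APOBEC3B, PRAME and HMOX1, the 107 genes higher in A3 than in unpassaged PC3 included the segregase cofactor UFD1 (0.47 ± 0.08 SE) and ATXN10 (0.43 ± 0.07 SE).

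**Figure D4:**
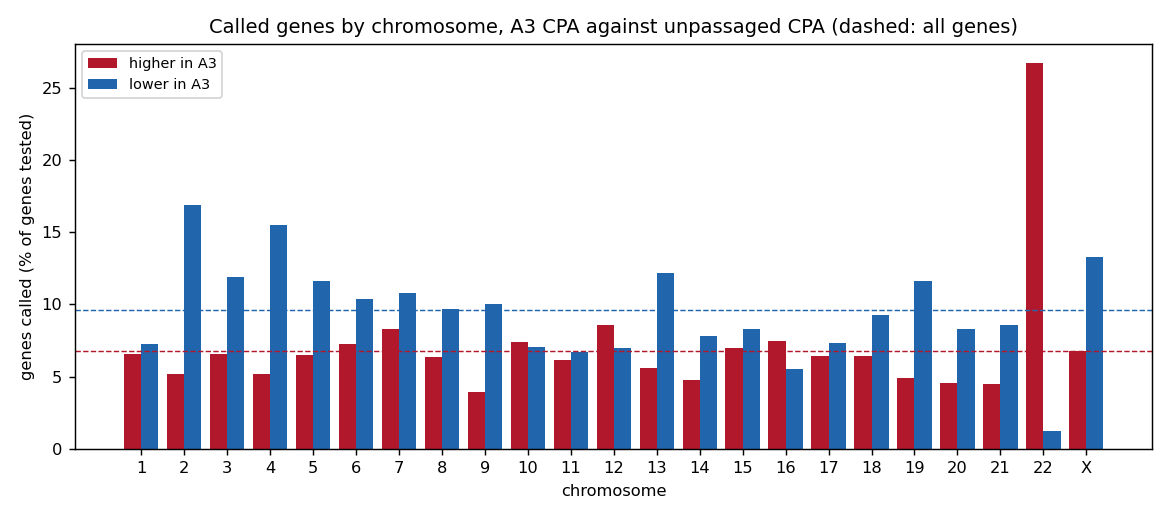
Share of tested genes called higher (red) and lower (blue) in A3 than in unpassaged PC3 under CPA, by chromosome, with dashed lines at the shares over all genes (6.74% and 9.60%). Chromosome 22 has 26.7% higher and 1.25% lower.

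Chromosome 19 carried the opposite pattern in one gene family. Of 229 tested zinc finger genes named ZNF there, 117 were lower and 0 higher, with a median of -0.344, whereas of the other 1023 genes of the chromosome 28 were lower and 61 higher, with a median of 0.097. This family was looked at after its values were seen. ZNF528 read 6.05, 5.94, 5.91 and 6.25 in A3, against 6.93, 7.15, 6.95 and 6.96 in unpassaged PC3 (-0.96 ± 0.10 SE, adjusted p = 9.0e-08), and ZNF382 differed by -0.95 ± 0.14 SE. On other chromosomes 52 of 248 ZNF genes were lower and 9 higher. Against the same unpassaged tumours, 117 of the 229 were lower in A3, 84 in D3 and 33 in D4, and 96 were lower in untreated A3. Over all genes 9.60% were lower in A3, 10.1% in D3, 7.59% in D4 and 8.36% in untreated A3. ZNF genes resemble each other, so probes may bind more than one of them.

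**Figure D5:**
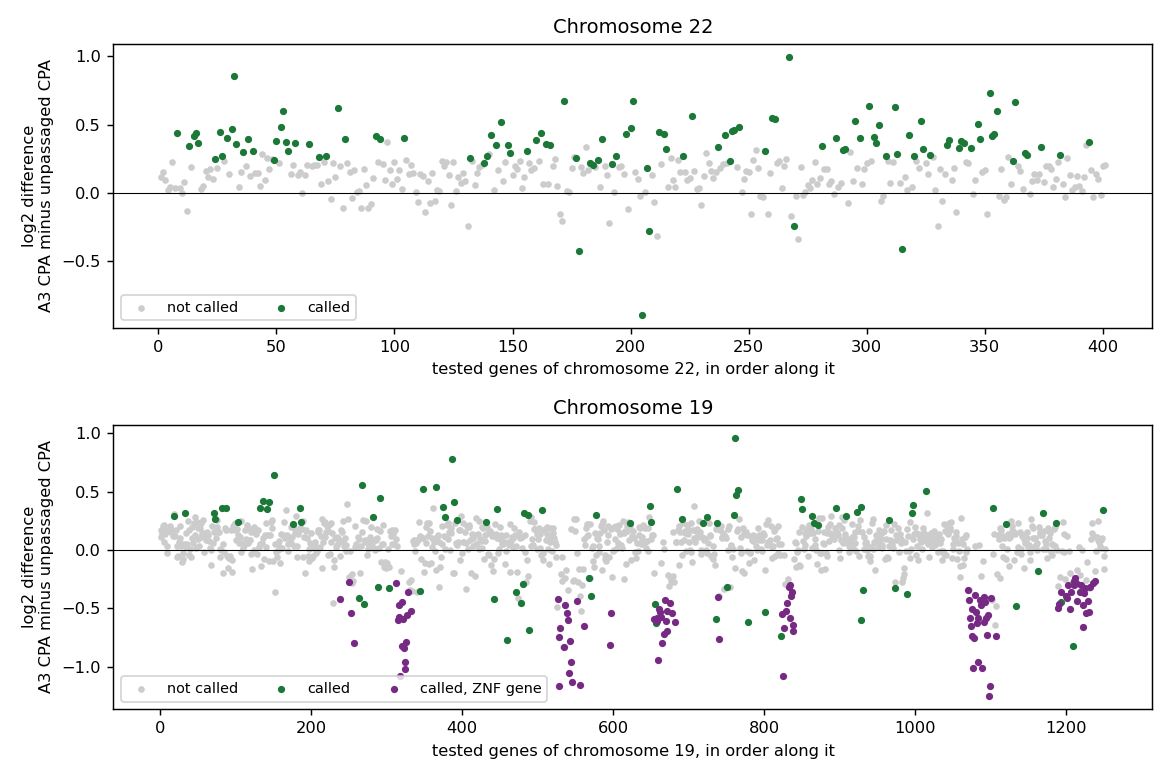
Log2 difference, A3 minus unpassaged PC3 under CPA, of the tested genes of chromosome 22 (top) and chromosome 19 (bottom) in their order along the chromosome, coloured where called. On chromosome 22, 107 of 401 genes were higher, and on chromosome 19 the 117 ZNF genes called lower (purple) lie in several runs.

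Runs of neighbours were taken as windows of 20 tested genes with at least 10 called in 1 direction. Windows were joined where they overlap and trimmed to the outermost called genes, which left 15 places. The runs were picked by the calls in CPA-treated A3, so that choice favours their counts there over those of the other comparisons. On chromosome 2, 55 of 100 genes between NFE2L2 and NBEAL1 were lower in A3 and 1 was higher, among them COL5A2, CFLAR, the signalling factor STAT4 (-1.08 ± 0.14 SE) and the integrin ITGAV (-0.90 ± 0.12 SE). In untreated A3 40 of the 100 were lower, in CPA-treated D3 39 and in CPA-treated D4 26, where 8.36%, 10.1% and 7.59% of all genes were. In CPA-treated A3 9.60% of all genes were lower. On chromosome 5, 15 of 17 protocadherin beta genes, which are adhesion proteins, were lower. With the dimmest 30% of genes left out, which leaves fewer of this family to test, 5 were called lower. PCDHB10 read 5.54, 5.18, 5.31 and 5.87 in A3, against 6.42, 6.64, 6.82 and 6.58 in unpassaged PC3 (-1.14 ± 0.13 SE). In D3 11 and in D4 14 of these were lower than in the unpassaged tumours. The PCDHB genes are similar in sequence and may share probe signal. The transporter ABCA8 and its neighbours on chromosome 17 formed another run, with 10 of 18 genes lower and ABCA8 itself at -1.10 ± 0.13 SE. A count of 10 is the least that the rule allows. In untreated A3 9 of the 18 were lower, in CPA-treated D3 7 and in CPA-treated D4 4.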

How the data were processed

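Tumour RNA was extracted with Trizol, labelled with biotin and read on whole-transcript Affymetrix arrays, per the labels. For 31 arrays the authors deposited log2 expression values of 23989 probe sets, which the submitters' processing notes credit to RMA; its version was not given in the sources used here. RMA forces the arrays to a common distribution, so differences are relative to the bulk of genes. Of the probe sets 17624 carried 1 gene symbol in the platform annotation. A gene with several was read from its brightest probe set on average, leaving 17314 genes. RefSeq (GRCh38.p14) gave current names for 17290 of them, their chromosome and order, and the promoters.

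Limma 3.58.1 in R 4.3.3 fitted 1 mean for each of 8 groups of line and treatment over all 31 arrays (23 residual degrees of freedom, median residual SD 0.148), with Benjamini-Hochberg adjustment over all genes. Every adjusted p comes from this fit, each difference is A3 minus unpassaged PC3 unless stated, and SE is its standard error. Genes at an adjusted p under 0.05 are called. The number of arrays limits the precision. On simulated data with 200 genes changed, the fit found 72% of log2 changes of 0.5 and 100% of those of 1 between A3 and unpassaged PC3 under CPA. Gene lists were described by counts and medians and not tested. The members and lists were chosen with earlier results of these data known. Named genes were the 15 highest and 15 lowest differences among called genes without overlap of arrays, the 5 smallest adjusted p in each direction, up to 6 members of each list by p with members whose role orders the account, the 5 smallest p of the difference of differences, and up to 5 per run of neighbours. Replicate numbers recur across groups, but same-numbered tumours deviated together in only 1 of 3 cases (correlations 0.234, 0.001 and -0.124), so they were not taken as pairs. The labels give no batch or scan date.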

Additional observations from a re-analysis of the deposited data

Results flagged for a closer look

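For 21 of 316 groups of 4 arrays checked among the named genes, 1 array lay far from the other 3, by a gap past Dixon's critical value as a share of the group's range; chance alone gives about 1 in 20 groups, and the cause was not tested. A3 replicate 1 was far above its group for SLC2A1 (10.13, others 8.93 to 9.06) and NDRG1 (11.50, others 10.35 to 10.5), slightly above for NLRC5 (6.58, others at 6.56) and below for NFE2L2 (8.38, others 8.60 to 8.64). A3 replicate 2 was low for PLAU (11.21, others 11.31 to 11.33). A3 replicate 3 was low for APOBEC3B (9.03, others 9.50 to 9.51), ELOVL2 (7.71, others 7.84 to 7.85) and H2BC14 (10.63, others 10.85 to 10.87). A3 replicate 4 was high for CDH2 (9.49, others 9.21 to 9.23), H4C8 (9.23, others 8.86 to 8.92) and IFNAR1 (8.91, others 8.68 to 8.70).

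Unpassaged replicate 1 was high for ALDH1A1 (4.86, others 4.28 to 4.37) and TYMS (9.45, others 9.17 to 9.20) and low for STAT4 (6.88, others 7.45 to 7.52). Unpassaged replicate 2 was low for S100A8 (4.07, others 4.31 to 4.35) and high for ZNF528 (7.15, others 6.93 to 6.96). Unpassaged replicate 3 was low for CYP2B6 (4.90, others 5.12 to 5.15), DCN (2.87, others 3.27 to 3.28) and ORC1 (8.08, others 8.31 to 8.34), and high for GLB1L3 (7.52, others 7.24 to 7.28) and VEGFA (8.66, others 8.15 to 8.18).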

How the results depend on the processing

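The number of genes called ran from 1991 to 3158 when each array was left out, against 2829 with all, those higher from 753 (without A3 replicate 1) to 1321, those lower from 1208 to 1837 and those at least 2-fold different from 90 to 128. With the replicate number as a block 2646 genes were called, 1060 higher and 1586 lower, and that block left 0 genes for the difference of differences. That count was 0 in every fit run. The calls in untreated tumours ran from 2442 to 3009 when an array was left out. Under a further quantile normalization the split was 1511 higher and 1620 lower, and centring each array on its median gave 1413 and 1494. Array weights gave 3675 genes. Of 316 named genes recomputed under 18 alternatives, 237 were called. Of these, 205 kept direction and call under every alternative that tested them, and 32 lost the call under at least 1. A gene among the dimmest 30% was not tested in the fit that left those out. ALDH1A3 turned to -0.15 where the probe set with the lowest mean was used, against 0.30 as reported, so its direction depends on the probe set. Over all alternatives 76 to 128 genes were called higher on chromosome 22 and 83 to 140 ZNF genes lower on chromosome 19. The number of ZNF genes was 83 where the dimmest 30% of genes were left out, which leaves fewer of them to test, and also 83 without unpassaged replicate 2. For changes other than those of fewer genes or fewer arrays, the cause was not tested. The number of arrays, not a read depth, limits the precision.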

Other observations

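Counts in this section stand beside 6.74% of all genes called higher and 9.60% called lower. Of 28 measured genes of sterol and fatty acid synthesis 3 were higher in A3 and 2 lower. That is 17.9% called, near the 16.3% of all genes. The higher ones included ACAT2 (0.51 ± 0.11 SE) and NSDHL (0.32 ± 0.07 SE). The lower ones were SCD (-0.40 ± 0.13 SE) and STARD4 (-0.42 ± 0.13 SE), neither of which was called without unpassaged replicate 2, 3 or 5. Of 15 prostate lineage genes 3 were lower (1 without unpassaged replicate 3), with the homeobox gene HOXB13 at -0.40 ± 0.10 SE. Of 11 clade B serpins SERPINB7 was higher and SERPINB3 (-0.28 ± 0.21 SE) and SERPINB8 (0.21 ± 0.11 SE) were not called. Of 17 ribosomal protein genes, 6 erythroid and 6 skin markers 0 were called. Of 9 muscle markers titin (TTN) was lower (-1.16 ± 0.17 SE) and skeletal actin (ACTA1) was higher (0.44 ± 0.11 SE under CPA and 0.05 without it), and of 7 adipocyte markers PPARG was lower (-0.39 ± 0.10 SE).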
